A study of Mus musculus with 12 samples.

Results

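The 10 genes described here, Gad1, Gad2, Dlx1, Dlx2, Dlx5, Dlx6, Lhx6, Sst, Npy and Maf, belong to GABAergic interneurons, the inhibitory nerve cells of the cortex. They were found by symbol among the 46603 Ensembl genes counted in the developing mouse neocortex at embryonic day 12.5 (E12.5) and postnatal day 5 (P5), and each of the 10 symbols matched 1 gene. On GRCm38 Gad1 lies at chr2:70553072-70602014, Gad2 at chr2:22622205-22693874, Dlx1 at chr2:71528113-71533981, Dlx2 at chr2:71543408-71546754 and Lhx6 at chr2:36081953-36105408. Dlx5 lies at chr6:6877805-6882085, Dlx6 at chr6:6863334-6868568, Npy at chr6:49822710-49829507, Maf at chr8:115682942-115707794 and Sst at chr16:23889581-23890844. Counts cover all annotated exons of a gene. All 10 passed the filter on low counts in every comparison.

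GABAergic interneurons do not arise in the cortex. They are born in the ganglionic eminences of the ventral forebrain, where the homeobox factors Dlx1, Dlx2, Dlx5 and Dlx6 set the GABAergic fate, and they migrate tangentially into the cortical plate, where subclasses mature after birth. Cells of the medial ganglionic eminence keep Lhx6 and Maf, and many of them become somatostatin interneurons. Gad1 and Gad2, which make GABA from glutamate, are used by every GABAergic neuron, including the projection neurons of the neighbouring striatum, which are also born from Dlx-expressing progenitors.

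The samples were 4 groups of 3 libraries on the C57Bl/6J background, made of wildtype (Chd8+/+) and heterozygous (Chd8+/-) cortex at E12.5 and at P5. The Chd8+/- mice carried 1 null allele of the chromatin remodeller Chd8, obtained by deleting the floxed exon 3 with a ubiquitous β-actin Cre, so that all cell types were heterozygous, and were bred by crossing Chd8+/- with wildtype mice. Both cortical hemispheres were taken at E12.5 and 1 hemisphere at P5. The methods give 3 samples per group, while the labels do not state that each came from its own animal, so the p-values measure the spread between these samples. In bulk tissue, fewer cells of a type and less RNA per cell cannot be told apart.

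Each library held between 38774591 and 54695236 counted fragments. The level of Chd8, in CPM (counts relative to the library total, scaled within a stage), was between 233 and 238 in the Chd8+/+ and between 164 and 169 in the Chd8+/- libraries at E12.5, and between 143 and 148 against between 94.1 and 97.7 at P5, so every library matched its genotype label. These counts cover all exons, so any remaining transcripts of the null allele without exon 3 would add to them, which was not tested. From qRT-PCR upstream of the deletion at E12.5, the paper proposes that the mutant transcript is most likely degraded. The tissue markers Emx1 and Tbr1 of the cortical lineage were present in every library, at 35.7 to 54.6 CPM and 182 to 244 CPM at E12.5. So were genes of the ventral forebrain at that stage, with Nkx2-1, the defining factor of the medial ganglionic eminence, at 73.0 to 97.6 CPM and Isl1, a striatal precursor factor, at 45.9 to 50.1 CPM. At P5 Nkx2-1 was at 2.50 to 4.45 CPM, while the dopamine receptor gene Drd1 of striatal neurons was at 18.3 to 27.5 CPM. The E12.5 libraries thus held RNA of genes that mark the ganglionic eminences, and the P5 libraries held RNA of genes that mark striatal neurons. One library of each stage lay low for most members. Chd8+/- replicate 2 had the lowest level of 8 of the 10 members at E12.5, and Chd8+/- replicate 1 had the lowest level of 6 of them at P5, so the genotype values of the members within a stage are given with and without these libraries. Those of the other GABAergic genes are given with all libraries only.

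The first comparison was between the stages. Levels of different genes are given per kilobase of exon (RPKM, scaled over all 12 libraries). In Chd8+/+ cortex Dlx2 and Dlx1 led the members at E12.5 and the neuropeptides led at P5. All 4 Dlx genes fell between the stages and Gad1, Maf, Sst and Npy rose, so that 8 of the 10 members passed the test, 4 higher and 4 lower. Of all 19676 genes tested 83.1% passed, 41.4% higher and 41.7% lower, so passing was the rule between these stages. In Chd8+/- cortex all 10 passed, beside 82.9% of all genes. In Chd8+/+ cortex Gad2 and Lhx6 did not pass. The median difference of the 10 members was -0.09 on the log2 scale, beside -0.02 over all genes tested. The libraries of each stage were sequenced in runs of their own, so stage and sequencing run cannot be told apart. The dissections differed as well, so change over time and the share of ventral tissue taken cannot be told apart either.

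**Figure D1:**
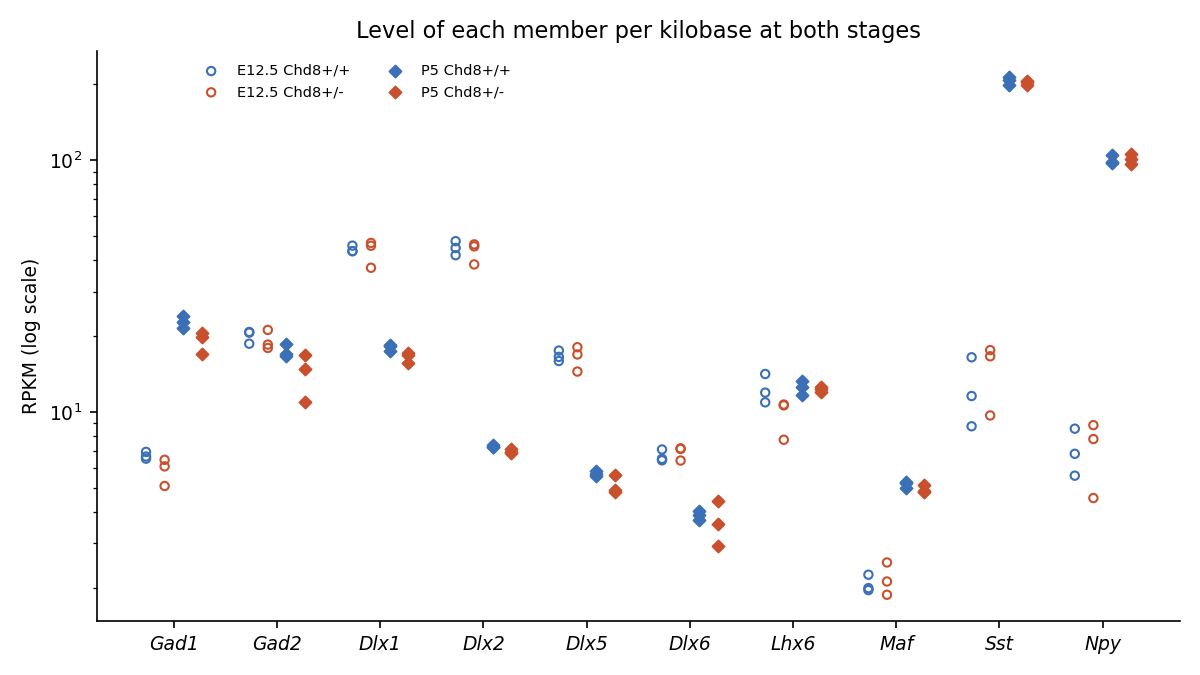
Level of each member in RPKM (log axis) in the 12 libraries, with open circles for E12.5, filled diamonds for P5, blue for Chd8+/+ and orange for Chd8+/-. Each point is 1 library. In Chd8+/+ cortex Sst and Npy had means of 12.3 and 6.99 RPKM at E12.5 and lie above all other members at P5, while the 4 Dlx genes lie lower at P5.

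Sst and Npy encode somatostatin and neuropeptide Y, peptides that cortical interneurons release beside GABA. Sst was at 11.6, 16.5 and 8.76 RPKM in the E12.5 Chd8+/+ libraries and at 199, 214 and 208 RPKM in the P5 Chd8+/+ libraries. Npy was at 6.81, 8.57 and 5.58 RPKM at E12.5 and at 98.5, 105 and 96.9 RPKM at P5. The stages lay far apart for both genes. Sst rose 16.98-fold (log2 fold change 4.09 ± 0.19 standard error, adjusted p = 3.90e-11 by the edgeR quasi-likelihood test) and Npy rose 14.4-fold (3.85 ± 0.17, adjusted p = 1.69e-11). In Chd8+/- cortex the rises were 13.9-fold and 14.3-fold. The ratio of Sst to Npy was 1.57 to 1.92 in the E12.5 Chd8+/+ and 1.99 to 2.13 in the E12.5 Chd8+/- libraries, which did not overlap, and 1.94 to 2.14 at P5, where the genotypes overlapped. This ratio was not tested.

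Because the 2 peptide genes rose together and the 2 GABA synthesis genes did not, the 250 bases before their annotated starts are shown, taken from RefSeq (GRCm38.p6) and written 5′ to 3′ on the strand of the gene. Sst (chr16:23890845-23891094, minus strand) and Npy (chr6:49822460-49822709, plus strand) come first, then Gad1 (chr2:70561879-70562128, plus strand) and Gad2 (chr2:22622077-22622326, plus strand). The Gad1 and Gad2 windows belong to starts that lie inside the counted genes. Capitals mark the matches to the 3 motifs searched on both strands, which were TGACGTCA, the cyclic AMP response element, TATAAA, the TATA box core, and TAATTA, a homeodomain core.
Sst: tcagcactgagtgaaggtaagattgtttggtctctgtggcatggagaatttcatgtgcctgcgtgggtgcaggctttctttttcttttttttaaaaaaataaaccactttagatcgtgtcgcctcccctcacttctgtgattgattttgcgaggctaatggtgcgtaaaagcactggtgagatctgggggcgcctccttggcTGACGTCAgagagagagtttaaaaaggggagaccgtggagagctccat
Npy: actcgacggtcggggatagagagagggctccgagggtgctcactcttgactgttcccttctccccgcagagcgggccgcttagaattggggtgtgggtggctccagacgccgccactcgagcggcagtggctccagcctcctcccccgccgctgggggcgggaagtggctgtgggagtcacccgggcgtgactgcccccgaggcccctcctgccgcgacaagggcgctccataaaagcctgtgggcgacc
Gad1: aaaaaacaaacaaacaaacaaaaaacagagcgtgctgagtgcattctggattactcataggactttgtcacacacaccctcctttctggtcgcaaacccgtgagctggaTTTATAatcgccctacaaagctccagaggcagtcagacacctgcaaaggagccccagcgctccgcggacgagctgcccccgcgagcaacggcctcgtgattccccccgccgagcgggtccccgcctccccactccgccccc
Gad2: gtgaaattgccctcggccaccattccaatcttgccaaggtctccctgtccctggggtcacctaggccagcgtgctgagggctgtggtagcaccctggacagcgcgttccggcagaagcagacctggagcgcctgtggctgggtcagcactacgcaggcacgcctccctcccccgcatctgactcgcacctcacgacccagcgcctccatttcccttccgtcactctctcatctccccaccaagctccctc
The Sst window held TGACGTCA 48 bases before the start, a motif present in 1.55% of the 32851 windows of the same length, and the Npy window held none of the 3 motifs. The Gad1 window held TATAAA, on the opposite strand, 141 bases before the start, as did 12.4% of all windows on either strand. TAATTA was in none of the 9 windows of the 7 members with an entry and in 4.84% of all windows. A match is given as a description of the letters only. Dlx5, Dlx6 and Maf are named without a window.

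Gad1 encodes GAD67, which supplies most of the GABA of the cell body, and Gad2 encodes GAD65, the form attached to synaptic vesicles. Gad1 was at 6.93, 6.64 and 6.52 RPKM in the E12.5 Chd8+/+ libraries and at 24.0, 22.7 and 21.6 RPKM at P5. Gad2 was at 20.8, 20.6 and 18.6 RPKM and then at 18.5, 16.9 and 16.6 RPKM. The pair therefore exchanged rank, with a ratio of Gad1 to Gad2 of 0.32 to 0.35 at E12.5 and of 1.30 to 1.34 at P5. Gad1 rose 3.40-fold (log2 fold change 1.77 ± 0.08, edgeR adjusted p = 3.94e-11). The log2 fold change of Gad2 was -0.20 ± 0.11 in Chd8+/+ (edgeR adjusted p = 0.112). Its call depended on the settings, since it passed with a correction for gene length (-0.46, adjusted p = 0.000999), which moved the median of all genes by -0.22, on all genes of at least 1 count (adjusted p = 0.0211) and without P5 Chd8+/- replicate 1 (-0.21, adjusted p = 0.0157). In Chd8+/- cortex Gad2 fell by 0.44 ± 0.12 on the log2 scale (edgeR adjusted p = 0.0028), or by 0.28 without P5 Chd8+/- replicate 1. The difference between the genotypes in this fall was -0.23 ± 0.16 and did not pass the test of the interaction (edgeR adjusted p = 0.646).

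The Dlx genes sit in 2 pairs, Dlx1 and Dlx2 on chromosome 2 with 9.43 kb between them and Dlx5 and Dlx6 on chromosome 6 with 9.24 kb between them. Dlx2, the member that acts earliest in progenitors together with Dlx1, was at 44.7, 41.9 and 47.6 RPKM at E12.5 and at 7.22, 7.39 and 7.25 RPKM at P5 in Chd8+/+ cortex. This was the largest fall of the 10, at 6.14-fold (log2 fold change -2.62 ± 0.07, edgeR adjusted p = 5.43e-14). Dlx1 went from 44.2 ± 1.29 (SD, n = 3) to 18.1 ± 0.49 RPKM, a 2.45-fold fall. The ratio of Dlx2 to Dlx1 was 0.964 to 1.095 in the E12.5 Chd8+/+ libraries and 0.397 to 0.413 at P5. Dlx5, which follows Dlx1 and Dlx2 as cells leave the progenitor zones, went from 16.6 ± 0.80 to 5.67 ± 0.15 RPKM and Dlx6 from 6.67 ± 0.36 to 3.89 ± 0.15 RPKM (SD, n = 3). Their falls were 2.94-fold and 1.72-fold (edgeR adjusted p = 1.80e-10 and 1.29e-05). The falls in Chd8+/- cortex were of 2.63-fold for Dlx1, 6.23-fold for Dlx2, 3.22-fold for Dlx5 and 1.89-fold for Dlx6, and all 4 passed the test.

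Dlx6os1 and Dlx1as, which are transcribed beside the Dlx genes, fell as well. Dlx6os1, a long RNA read from the strand opposite to Dlx6 and also known as Evf2, went from 145 to 26.8 CPM (log2 fold change -2.44 ± 0.14) and Dlx1as from 11.2 to 4.97 CPM (-1.18 ± 0.10). Both were past the threshold of 0.05 for the edgeR adjusted p. Of the other Dlx genes listed with them, Dlx3 fell and Dlx4 rose, both at mean levels of at most 0.351 CPM. The command recorded in the P5 count table sets no strand option, so reads from exon bases shared with an antisense gene cannot be told apart there. Dlx1as shares 335 exon bases, or 6.21%, with Dlx1, and Dlx6os2, another antisense gene, shares 104 exon bases, or 4.38%, with Dlx6. Dlx6os1 shares none with Dlx6 in the annotation used here.

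Lhx6, a LIM homeobox factor set up by Nkx2-1, directs migration and the somatostatin and parvalbumin fates. It was at 11.9, 10.9 and 14.1 RPKM in the E12.5 Chd8+/+ libraries and at 11.7, 12.6 and 13.2 RPKM at P5, so the stages overlapped (log2 fold change 0.02 ± 0.11, edgeR adjusted p = 0.876). In Chd8+/- cortex it rose by 0.35 ± 0.11 (edgeR adjusted p = 0.0103). Without E12.5 Chd8+/- replicate 2 this value was 0.21 (adjusted p = 0.0433), and with a correction for gene length it was 0.11 and did not pass (adjusted p = 0.377). Maf, a basic leucine zipper factor of postmitotic interneurons that is also used outside this lineage, rose 2.49-fold in Chd8+/+ cortex, from 2.07 ± 0.16 to 5.16 ± 0.17 RPKM (SD, n = 3; edgeR adjusted p = 2.68e-09).

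Ordered by RPKM in Chd8+/+ cortex, Dlx2 and Dlx1 came first at E12.5, followed by Gad2, Dlx5, Lhx6, Sst, Npy, Gad1, Dlx6 and Maf. The libraries overlapped between Dlx2 and Dlx1, between Lhx6 and Sst, between Npy and Gad1 and between Gad1 and Dlx6. At P5 the order was Sst, Npy, Gad1, Dlx1, Gad2, Lhx6, Dlx2, Dlx5, Maf and Dlx6, and only Dlx1 and Gad2 overlapped among neighbours. The P5 order was the same in Chd8+/- cortex, where Gad1, Dlx1, Gad2 and Lhx6 overlapped from neighbour to neighbour, and so did Dlx5 and Maf.

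The change between the stages was then read for 49 other genes of the GABAergic lineage in 4 lists. Of these, 48 passed the edgeR test in Chd8+/+ cortex, 35 higher and 13 lower at P5, with a median log2 fold change of 1.498 (83.1% of all genes passed, 41.4% higher and 41.7% lower). All 5 genes of transmitter handling rose, and so did all 15 subclass markers. Of the 16 eminence and lineage factors 11 fell and 5 rose, with a median of -1.41. Of the 13 genes of migration and signaling 10 rose and 2 fell.

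The falls were led by factors that pattern the eminences, for which the share of ventral tissue taken at each stage was not measured. Nkx2-1 went from 84.5 to 4.33 CPM, a 19.5-fold fall, Gsx2, which specifies the lateral eminence, from 13.5 to 0.77 CPM, and Lhx8, a partner of Lhx6 in ventral cholinergic and GABAergic cells, from 35.97 to 4.29 CPM. The rises were led by Vip, the peptide gene of another interneuron subclass, which had 0 counts in all 6 E12.5 libraries and 5.20, 5.88 and 5.52 CPM at P5. Against a floor of 3 counts per library this was at least 87.6-fold higher. Slc6a11, a GABA transporter best known from astrocytes, went from 3.79 to 299 CPM and Crhbp, a marker of somatostatin cells, from 0.10 to 6.11 CPM. Pvalb, the marker of parvalbumin interneurons, was at 0 to 0.058 CPM at E12.5 and at 0.043 to 1.43 CPM at P5.

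**Figure D2:**
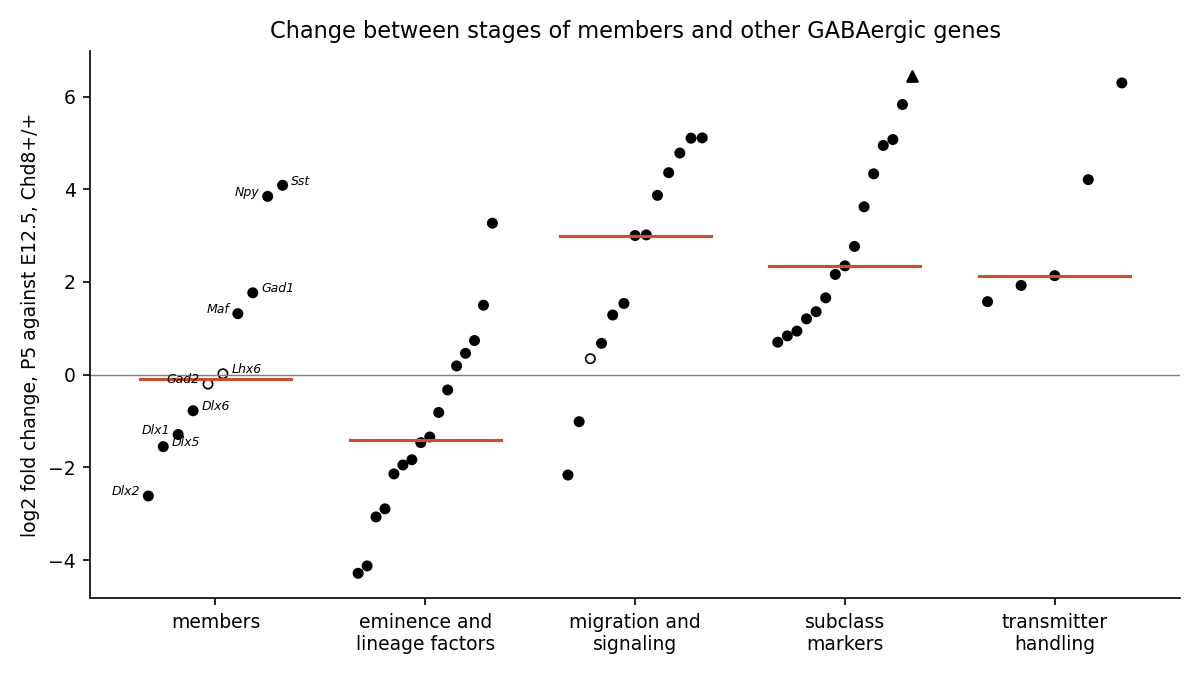
Log2 fold change of P5 against E12.5 in Chd8+/+ cortex for the 10 members and 49 other GABAergic genes in 4 lists, 1 point per gene. Filled points passed the edgeR test, open points did not, red lines are list medians, and the triangle is Vip at its lower bound. The 15 subclass markers and the 5 transmitter genes all lie above 0, while 11 of the 16 eminence and lineage factors lie below it.

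The second comparison was between the genotypes at E12.5. No member passed the edgeR test, and none passed with DESeq2 or limma-voom. Of all 18081 genes 0.00553% passed with edgeR, which was Chd8 alone (adjusted p = 0.00562, and up to 0.141 with 1 library left out), and 0.0374% of 13360 genes passed with DESeq2. At an unadjusted p under 0.05 there were 2 members, Gad1 and Lhx6, both lower in Chd8+/-, where 5.15% of all genes reached that level and 2.84% were lower. Those 2 were also the members whose groups did not overlap, beside 5.9% of all genes that lay lower without overlap. In all 6 members were lower and 4 higher in the fit (49.8% of all genes were lower). Their median on the log2 scale was -0.02, beside a median of 0.00058 over all genes. Without Chd8+/- replicate 2 there were 4 lower members and the median was 0.05.

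**Figure D3:**
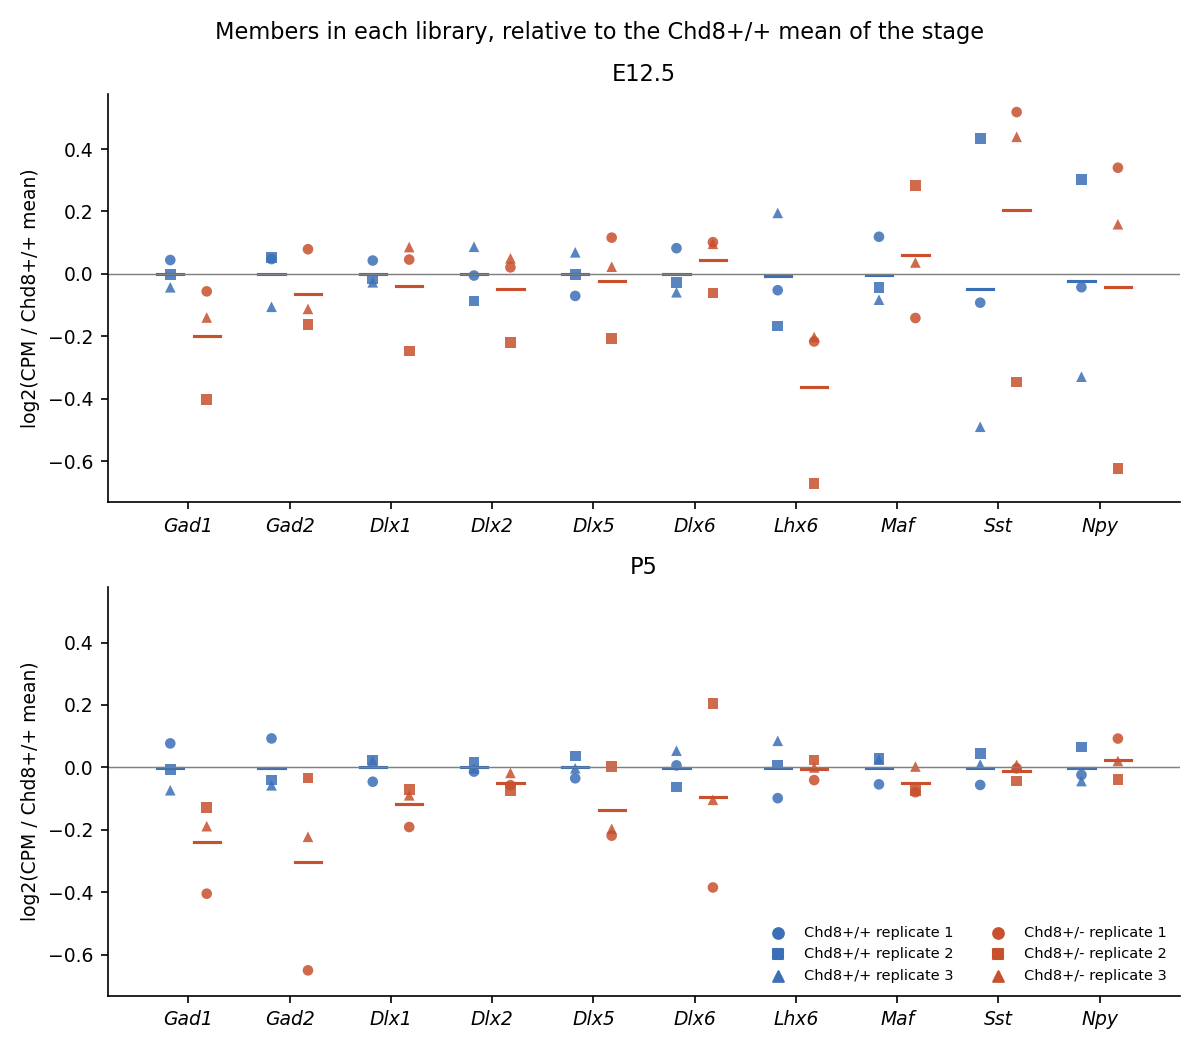
Log2 ratio of the CPM of each member to the Chd8+/+ mean of its stage, 1 point per library, blue for Chd8+/+ and orange for Chd8+/-, with the shape giving the replicate number. Short lines are means of the 3 log2 values. At E12.5 Chd8+/- replicate 2 (orange square) is lowest for 8 members, and at P5 Chd8+/- replicate 1 (orange circle) is lowest for 6.

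Lhx6 had the largest fitted difference at E12.5. It was at 57.9, 53.5 and 68.7 CPM in the Chd8+/+ and at 51.7, 37.7 and 52.2 CPM in the Chd8+/- libraries, so that all 3 Chd8+/- libraries lay below the lowest Chd8+/+ library. The log2 fold change was -0.35 ± 0.13 (unadjusted p = 0.0250, edgeR adjusted p = 0.942), and without Chd8+/- replicate 2 it was -0.21. Gad1 was at 53.5, 51.8 and 50.4 CPM against 49.9, 39.2 and 47.1 CPM. Its Chd8+/- libraries again lay below all Chd8+/+ libraries, narrowly for the nearest pair, with a log2 fold change of -0.19 ± 0.08 (unadjusted p = 0.0473, edgeR adjusted p = 0.942) and of -0.10 without Chd8+/- replicate 2.

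Gad2 and the Dlx factors overlapped between genotypes at E12.5, with log2 fold changes from -0.06 for Gad2 to 0.05 for Dlx6. Without Chd8+/- replicate 2 Gad2 was at -0.01 and Dlx6 at 0.10. Dlx1, Dlx2 and Dlx5 were slightly below 0 in the fit and slightly above it without that library, at 0.07, 0.04 and 0.07. Sst was at 6.99, 10.1 and 5.31 CPM in the Chd8+/+ and at 10.7, 5.86 and 10.1 CPM in the Chd8+/- libraries. Npy was at 3.90, 4.95 and 3.19 CPM and at 5.08, 2.60 and 4.48 CPM. Both peptide genes varied by more than the genotypes differed, with coefficients of variation of 32.3% for Sst and 22.0% for Npy in the Chd8+/+ group, and their log2 fold changes were 0.26 ± 0.26 and 0.01 ± 0.24. Single libraries moved both, with Sst between 0.06 without Chd8+/+ replicate 3 and 0.53 without Chd8+/+ replicate 2. Without Chd8+/- replicate 2 Sst was at 0.49 and Npy at 0.26. Maf was at 0.07 ± 0.11, and at -0.05 without that library.

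Chd8+/- replicate 2 also differed in markers of other cell types at E12.5. The summed level of 5 meningeal markers was 604 CPM in that library and between 255 and 392 CPM in the other 5, and that of 10 markers of cortical excitatory neurons was 486 CPM beside 569 to 710 CPM. Its sums of 5 Cajal-Retzius markers, at 174 CPM beside 99.2 to 119 CPM, and of 5 oligodendrocyte precursor markers, at 109 CPM beside 71.3 to 88.0 CPM, were also the highest. The summed level of 17 markers of striatal neurons and their precursors was 231 to 254 CPM in the Chd8+/+ and 243 to 256 CPM in the Chd8+/- libraries, which overlap. The summed level of 6 endothelial markers was 166 to 170 CPM in the Chd8+/+ and 148 to 161 CPM in the Chd8+/- libraries, which did not overlap, and all 5 of them that were tested had a lower fitted level. The part of these differences in the values of Lhx6 and Gad1 was not tested beyond leaving out the library.

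Of the 45 other GABAergic genes tested at E12.5, none passed with edgeR, and DESeq2 called none of the 38 it gave an adjusted p. An unadjusted edgeR p under 0.05 was reached by 3 of the 45, beside 5.15% of all genes, a share that 3 of 45 is near. Among those with the smallest p were Npy2r, Calb1, Lhx8 and Ackr3. Npy2r, a receptor for neuropeptide Y, was at 0.22 against 0.40 CPM, the lowest level of these genes. Lhx8 was at 36.5 ± 3.30 against 31.0 ± 3.73 CPM (SD, n = 3), a log2 fold change of -0.23. Of the 16 eminence and lineage factors, which include it, 10 were higher and 6 lower, with a median of 0.02. Calb1, which encodes calbindin, was at 0.23 and Ackr3, a chemokine receptor of migrating interneurons, at 0.14. The median over the 45 genes was 0.03.

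The third comparison was between the genotypes at P5. Again no member passed the edgeR test, in which 0.00536% of 18666 genes passed, Chd8 alone, and none passed with limma-voom. EdgeR called 327 genes without Chd8+/- replicate 2, with Gad1 and Gad2 just outside the threshold (adjusted p = 0.0530 and 0.0622), and without any other single library it called 1 to 5. At an unadjusted p under 0.05 there were 3 members, Gad1, Gad2 and Dlx1, all lower in Chd8+/-, where 17.8% of all genes reached that level and 9.77% were lower. DESeq2 called 1 member, Gad1, among the 5.28% of 12362 genes it called. The fitted level was lower in Chd8+/- for 9 of the 10 members, beside 49.6% of all genes, with a median log2 fold change of -0.06. Without Chd8+/- replicate 1 it was lower for 8 of the 10, with a median of -0.04.

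**Figure D4:**
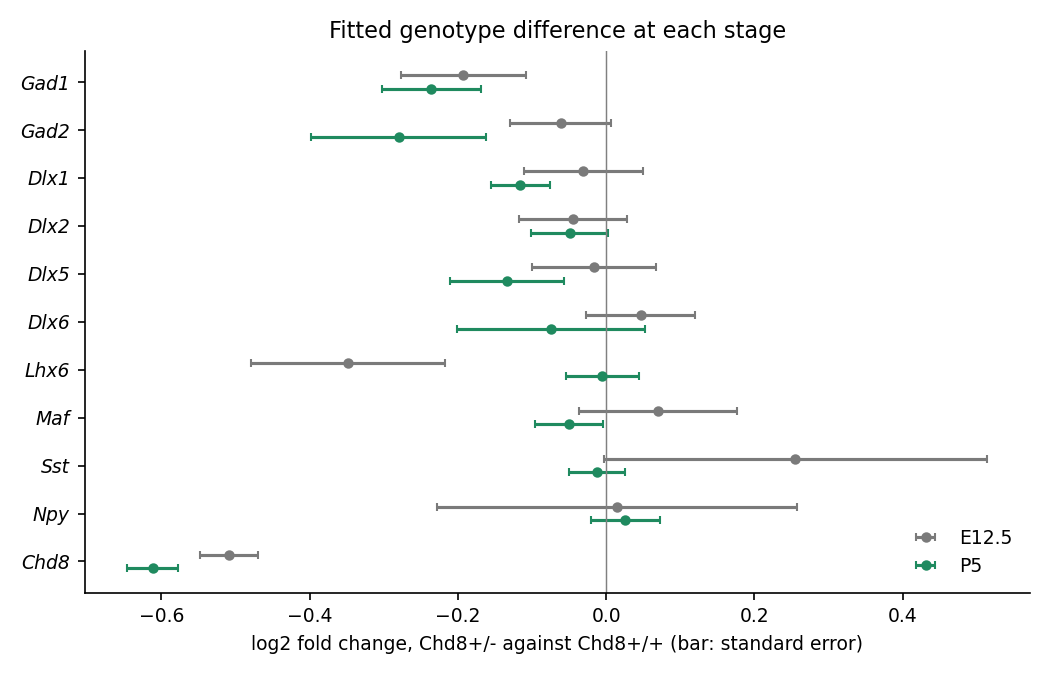
Fitted log2 fold change of Chd8+/- against Chd8+/+ for each member and for Chd8 at E12.5 (grey) and at P5 (green), with bars of 1 standard error. At P5 Gad1 and Gad2 lie at -0.24 and -0.28, while Lhx6, Sst and Npy lie within 0.03 of 0. At E12.5 Lhx6 lies lowest of the members.

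Gad1 was at 180, 170 and 162 CPM in the P5 Chd8+/+ libraries and at 129, 156 and 150 CPM in the Chd8+/- libraries. All 3 Chd8+/- libraries lay below the lowest Chd8+/+ library, and the fitted difference was -0.24 ± 0.07, or 15.1% lower. Its adjusted p was 0.133 with edgeR and 0.0104 with DESeq2. With edgeR on all genes that had at least 1 count it was 0.00224, in a fit that called 3.18% of 31265 genes. The DESeq2 call was lost without Chd8+/+ replicate 1 (adjusted p = 0.225), without Chd8+/+ replicate 2 (0.0619) and without Chd8+/- replicate 1 (0.0880). Over these and the other alternatives the log2 fold change stayed between -0.29 and -0.16.

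Gad2 was at 107, 97.3 and 96.2 CPM in the Chd8+/+ and at 63.8, 97.8 and 85.8 CPM in the Chd8+/- libraries. The groups overlapped, since Chd8+/- replicate 2 lay among the wildtype libraries while replicate 1 lay far below. The log2 fold change was -0.28 ± 0.12 (edgeR adjusted p = 0.254) and -0.12 without that library. With edgeR on all genes of at least 1 count Gad2 passed (adjusted p = 0.00767), and with DESeq2 it did not (0.401). The ratio of Gad1 to Gad2 was 1.55, 1.23 and 1.34 in the Chd8+/- libraries, beside 1.30 to 1.34 in the wildtype.

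Among the Dlx factors the differences were smaller. Dlx1 was at 92.6, 97.2 and 97.0 CPM against 83.8, 91.1 and 89.9 CPM, and Dlx2 was at 20.2, 20.7 and 20.4 CPM against 19.6, 19.4 and 20.2 CPM. In both, the Chd8+/- libraries lay below all Chd8+/+ libraries, as in 12.2% of all genes, narrowly for Dlx2. Their log2 fold changes were -0.12 ± 0.04 (edgeR adjusted p = 0.183) and -0.05 ± 0.05 (0.652). Dlx5 was at -0.13 ± 0.08 and overlapped. Without Chd8+/- replicate 1 these 3 genes were at -0.08, -0.04 and -0.09. Dlx6 was at 9.10, 8.67 and 9.40 CPM against 6.94, 10.4 and 8.43 CPM, so that the Chd8+/- group spanned the Chd8+/+ group, and its fitted value turned from -0.07 to 0.06 without Chd8+/- replicate 1. Dlx6os1 was at 26.3 against 22.6 CPM (log2 fold change -0.21 ± 0.12, edgeR adjusted p = 0.360).

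For Sst, Npy, Lhx6 and Maf the groups overlapped at P5. Sst was at 117, 126 and 122 CPM in the Chd8+/+ and at 121, 118 and 122 CPM in the Chd8+/- libraries, and Npy was at 54.7, 58.2 and 54.0 CPM against 59.3, 54.2 and 56.4 CPM. Lhx6 was at 55.0, 59.2 and 62.4 CPM against 57.2, 59.8 and 58.9 CPM, and Maf was at 40.1, 42.5 and 42.4 CPM against 39.5, 39.6 and 41.8 CPM. Their log2 fold changes were -0.01 ± 0.04 for Sst, 0.03 ± 0.05 for Npy, -0.01 ± 0.05 for Lhx6 and -0.05 ± 0.05 for Maf. Without Chd8+/- replicate 1 all 4 lay between -0.03 and 0.01. Whether Gad1 differed from these genes in its genotype effect was not tested.

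Markers of striatal medium spiny neurons, which also use Gad1 and Gad2, had lower fitted levels at P5 as did those 2 genes. This list was chosen with earlier results of these data known. All 17 of its genes had a lower fitted level in Chd8+/-, beside 49.6% of all genes, with a median log2 fold change of -0.32. At an unadjusted edgeR p under 0.05 there were 13 of them, beside 9.77% of all genes that were lower at it. DESeq2 called 9 of the 16 it gave an adjusted p, beside 3.57% of all genes called lower. The summed level of the 17 genes was 836 to 896 CPM in the Chd8+/+ and 640, 764 and 738 CPM in the Chd8+/- libraries. The library with the lowest sum was replicate 1, which was also lowest for Gad1 and Gad2. In that library the striatal sum lay at -0.44 on the log2 scale relative to the Chd8+/+ mean, Drd1 at -0.53, Gad1 at -0.40 and Gad2 at -0.65. Six3 and Isl1, factors of striatal precursors, lay further down, at -1.26 and -1.28, and did not pass with edgeR or DESeq2. Without it the striatal list was still lower in 17 of 17 genes, with a median of -0.20, but DESeq2 then called 4 of them, among 140 genes in place of 653. It called 3 without Chd8+/+ replicate 1, among 48 genes, 3 without Chd8+/+ replicate 2, among 122 genes, 11 without Chd8+/- replicate 2, among 891 genes, and 6 without replicate 3 of either genotype. With edgeR 0 passed in the main fit, 12 on all genes of at least 1 count, among 995 genes, and 1 with a replicate block. When a library was left out, 7 passed with edgeR without Chd8+/- replicate 2, among 327 genes, and 0 without any other. The 6 markers of the choroid plexus were all lower as well, with a summed level of 427 to 553 CPM against 315 to 372 CPM. Of 6 endothelial markers 5 were lower, 4 at an unadjusted p under 0.05 and 2 by DESeq2 (Flt1 and Cdh5, at -0.43 and -0.22), and 7 of 8 cortical progenitor markers were lower. The endothelial and progenitor sums overlapped between genotypes, at 168.8 to 188.3 against 155.8 to 169.4 CPM and at 129.2 to 142.7 against 123.1 to 135.5 CPM. Of 10 cortical excitatory markers 7 had a higher and 3 a lower fitted level, and of 5 meningeal markers 4 had a higher and 1 a lower one. The excitatory sum was 1604 CPM in Chd8+/- replicate 1, beside 1435 to 1530 CPM in the Chd8+/+ libraries. The astrocyte, microglia and oligodendrocyte precursor lists had medians from -0.01 to 0.03. In the wildtype and heterozygous libraries alike none of the 17 striatal markers was at 0, the lowest count being 114 in a library. The part of these cell types in the values of Gad1, Gad2 and Dlx1 was not tested.

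**Figure D5:**
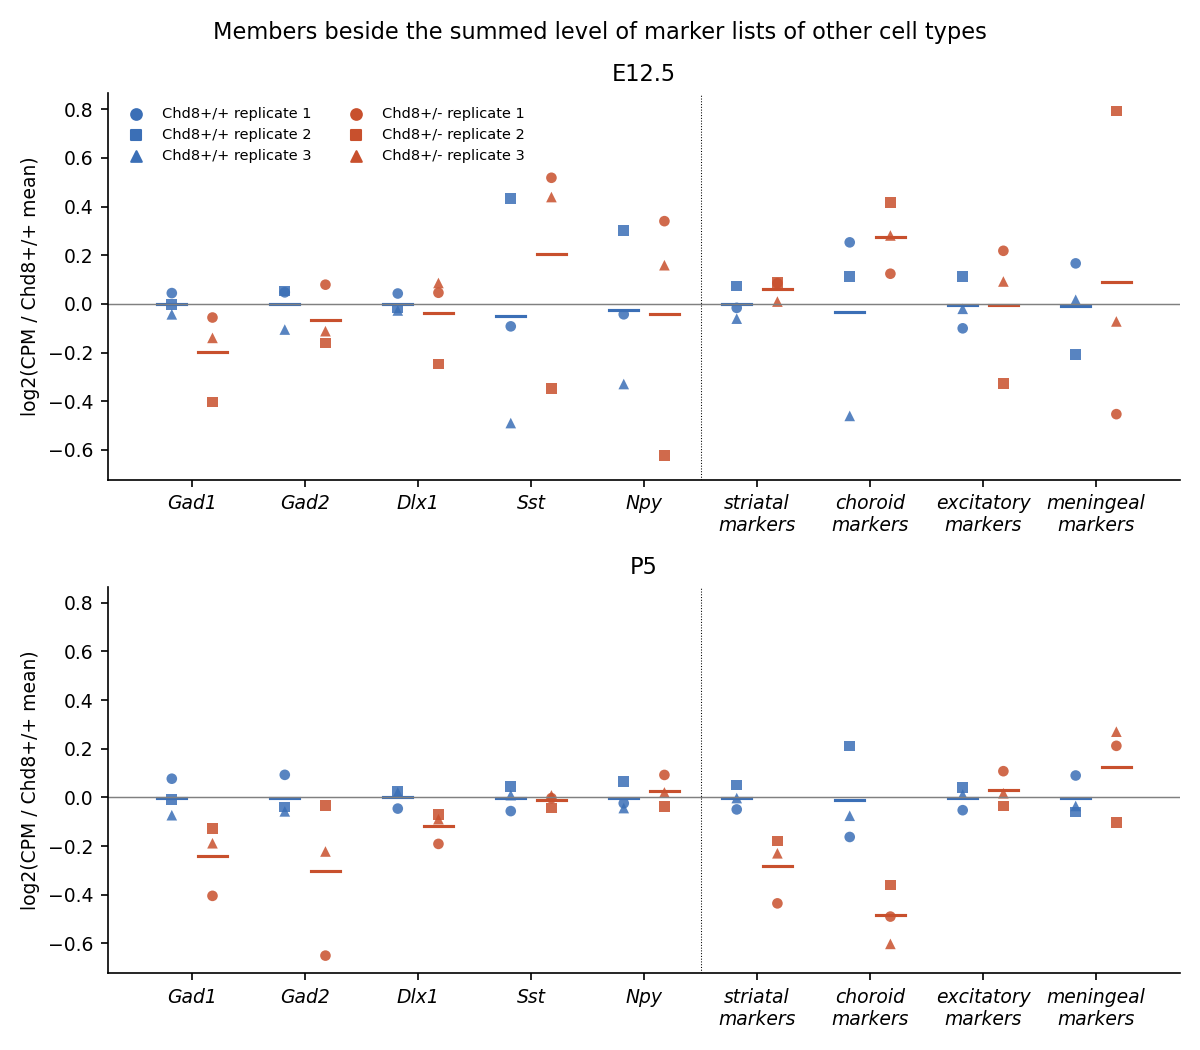
Log2 ratio to the Chd8+/+ mean of the stage for 5 members (left of the dotted line) and for the summed CPM of 4 marker lists of other cell types, 1 point per library, with colours and shapes as in the plot of all members. At P5 the striatal sum and Gad1 are lower in all 3 Chd8+/- libraries, the Gad2 groups overlap, and all 3 are lowest in Chd8+/- replicate 1, while Sst and Npy scatter around 0.

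Most other genes of the lineage had a lower fitted level in Chd8+/- at P5. Of the 49 tested none passed with edgeR, and 14 had an unadjusted p under 0.05, 12 of them lower. DESeq2 called 4 lower and 0 higher of the 42 it gave an adjusted p. Over all genes 17.8% had an unadjusted edgeR p under 0.05, 9.77% were lower at it, and DESeq2 called 5.28%, 3.57% lower. The median of the 49 was -0.10 on the log2 scale, and 35 were lower, beside 49.6% of all genes. The 5 with the smallest p were Reln, Nkx2-1, Prox1, Erbb4 and Tac1. Reln, the secreted glycoprotein of Cajal-Retzius cells and of several interneuron classes, was at 353 ± 4.28 against 314 ± 11.7 CPM (SD, n = 3; log2 fold change -0.17 ± 0.04, edgeR adjusted p = 0.110). Nkx2-1 was at 4.24 ± 0.33 against 2.93 ± 0.49 CPM (-0.54 ± 0.13, adjusted p = 0.116). Prox1, a factor of caudal eminence interneurons, was at -0.30 ± 0.08, Erbb4, the neuregulin receptor of interneurons, at -0.17 ± 0.05, and Tac1, a peptide gene that striatal neurons also use, at -0.30 ± 0.09. DESeq2 called Reln, Prox1, Erbb4 and Tac1 and gave no adjusted p for Nkx2-1. The vesicular GABA transporter Slc32a1, in a list beside Gad1 and Gad2, was at 67.0 against 61.0 CPM (-0.14 ± 0.07, edgeR adjusted p = 0.324); it was chosen after its values were seen.

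The genotype differences at the 2 stages were then compared directly. No member passed the edgeR test of the interaction between genotype and stage, none had an unadjusted p under 0.05, and DESeq2 called none of the 9 members it gave an adjusted p. Of all 19676 genes 0.0% passed with edgeR and 1972 had an unadjusted p under 0.05, while 0.0938% of 8533 passed with DESeq2. The smallest p was that of Lhx6, whose difference was 0.33 ± 0.16 higher at P5 than at E12.5 (unadjusted p = 0.0560, edgeR adjusted p = 0.506). With 1 library left out it ran from 0.20 to 0.43, and the value of Sst ran from -0.54 to -0.09. The values of the other members ran from -0.29 for Sst, with a standard error of 0.26, to -0.01 for Npy, and 9 of the 10 were below 0, beside 54.2% of all genes.

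For each member the genes with the most similar pattern over the 12 libraries were listed, by the root mean square difference between their log2 CPM values after removing the mean of each gene (CPM plus 0.5). Dlx1 lay close to Zfp207 (0.057) and Zfp131 (0.066). Dlx2 lay closest to Topbp1, Gpc4 and Gpsm2 (0.066 to 0.071), Dlx5 to Rab8b, Ptbp2 and Ccar1 (0.070 to 0.077) and Dlx6 to Hinfp, Hdac8 and Zfp654 (0.086 to 0.094). Gad1 lay closest to Ppp1r12b, Elovl7 and Il6ra (0.078 to 0.099) and Gad2 to Zbtb20, Tie1 and Stard5 (0.095 to 0.112). Lhx6 lay closest to Gm2065, Cyp27b1 and Gm26880 (0.085 to 0.131) and Maf to Lhfp, Foxp1 and Dip2a (0.060 to 0.076). Sst lay closest to Nkain2, Hrk and Npy (0.127 to 0.147) and Npy to Hr and Fam49a (0.078 to 0.107). Npy was the only member among the 3 nearest genes of another member. Since most genes differed between the stages, this likeness mainly compares the size of that change.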

How the data were processed

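RNA-seq of mouse cortex was available for 12 libraries, 3 of each genotype at E12.5 and at P5, with 2 sequencing runs per library. The authors trimmed reads with Trim Galore 0.4.1, aligned them to GRCm38.p4 with TopHat2 2.1.0 and counted read pairs with featureCounts 1.5.0. The deposited tables hold raw counts per gene (Ensembl 82 annotation), with no strand option in the P5 command; the E12.5 command is not given in the sources used here. The runs of a library were summed, since they differed by 1.18 to 1.51 times sampling noise per degree of freedom, while libraries of a group differed by 6.58 to 45.4 times.

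Counts were tested with edgeR 4.0.16 in R 4.3.3 by the quasi-likelihood test, with TMM scaling, filterByExpr defaults and Benjamini-Hochberg adjustment over all genes tested at a threshold of 0.05. Genotypes were compared within a stage (18081 and 18666 genes) and stages and the interaction in 1 model of all 12 libraries (19676 genes). The biological coefficient of variation was 9.18%, 7.42% and 8.36%. DESeq2 1.42.0 and limma 3.58.1 were alternatives, beside other scaling, filters, gene length offsets, a replicate block and leaving out each library. RPKM is TMM-scaled CPM per kilobase of the exon length in the deposited tables. On simulated counts edgeR recovered 27.9% of genes changed by 0.3 on the log2 scale at P5 and 8.8% at E12.5, and DESeq2 recovered 39.7% and 22.1%. The changed genes were drawn at random from all genes tested, so these rates are not those of the members.

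The members, the gene lists and the marker lists were chosen with earlier results of these data known. All 10 members are named. Of the other lists, the genes named are those past the threshold and the 5 with the smallest p at each stage, and the 3 largest rises and falls between stages. A marker of another cell type is named where its list moved with a member. Promoter windows come from RefSeq (GRCm38.p6), which held 7 of the 10 members. Overlaps between genes come from the exon coordinates in the deposited tables. Pvalb, Slc32a1 and the Dlx-linked RNAs were named after their values were seen. Some genes that the rule names are not reported here.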

Additional observations from a re-analysis of the deposited data

How the results depend on the processing

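The count of members that passed the genotype test at P5 was 0 with edgeR, 1 with DESeq2 (Gad1), 0 to 1 with DESeq2 when a library was left out, and 2 with edgeR on all genes of at least 1 count (Gad1 and Gad2). It was 0 in the other alternatives, as was the count at E12.5 and that for the interaction under all alternatives run. Between stages the count was within 1.5 times the main value under each alternative, also with gene length offsets, which moved the median of all genes by -0.22 in Chd8+/+ and -0.20 in Chd8+/-. Some values of uncalled members crossed 0. At E12.5 Npy was -0.0176 with limma-voom. With gene length offsets Lhx6, Maf and Npy were 0.0188, 0.0037 and -0.0219 at P5, Lhx6 was -0.25 between stages in Chd8+/+, and the interaction of Gad1 was 0.00462. Leaving out a library, with edgeR or DESeq2, gave ranges at E12.5 of -0.0932 to 0.0694 for Dlx1, -0.0946 to 0.0385 for Dlx2, -0.0869 to 0.0729 for Dlx5, -0.0466 to 0.164 for Maf and -0.175 to 0.257 for Npy. At P5 they were -0.237 to 0.0581 for Dlx6, -0.0526 to 0.0444 for Lhx6, -0.0397 to 0.012 for Sst and -0.00782 to 0.0608 for Npy. With edgeR the range between stages was -0.0665 to 0.131 for Lhx6 in Chd8+/+, and for the interaction it was -0.146 to 0.0335 for Gad1, -0.092 to 0.0508 for Dlx2 and -0.237 to 0.194 for Npy. The causes were not tested.

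The replicate numbers were not used as pairs in the main fits. Same-numbered libraries correlated at -0.35, -0.163 and -0.20 at E12.5 and at 0.277, 0.108 and 0.019 at P5. Differently numbered libraries at P5 correlated at -0.249 to 0.178, so these values do not settle whether the P5 libraries were paired. With a replicate block 0 members passed at either stage and 0 for the interaction, 8 and 10 passed between stages, and Npy at E12.5 was -0.00188. The lowest value of a member in a library was 2.60 CPM, from 115 counts, and whether depth limits the members was not tested. In the simulated counts, with 3 libraries per group, most genotype differences of 0.3 on the log2 scale were missed. Those counts were of genes drawn from all genes tested and give no rate for the members. DESeq2 with libraries left out and the counts of lower members were chosen after seeing the data.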
